A study of Mus musculus with 38 samples.

Results

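The numbered zinc finger protein genes are the mouse genes whose symbol is Zfp followed by a number alone. Of 45706 genes in the tables, 372 carry such a symbol, and the 148 with a mean of at least 100 raw reads over the 20 libraries of the TNF experiment are described here. Zfp36 was left out because it encodes tristetraprolin, a factor of messenger RNA decay and not a transcription factor. The members were thus chosen by their mean raw count, which sets their level but uses no difference between conditions. Just inside it lay Zfp994, Zfp787 and Zfp946, with means of 101.1, 101.5 and 104.65 reads, and just outside it lay Zfp444, Zfp809 and Zfp467, with means of 99.15, 98.8 and 97.55 reads.

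Most of these genes encode proteins that bind DNA through tandem zinc fingers, each a short loop held by a pair of cysteines and a pair of histidines around a zinc ion. Many of them also carry a KRAB box, a short stretch near the amino terminus that recruits the corepressor TRIM28 (KAP1) and, with it, the histone methyltransferase SETDB1, and such proteins are best known for silencing transposable elements and imprinted regions. Their genes lie in clusters that grew by duplication, so close paralogs share near-identical sequence, and counts of short single-end reads could be split or lost between them.

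Messenger RNA was measured in primary fibroblasts from C57BL/6 mouse embryos, either homozygous for the RelA knock-in allele named RelA-TA-KI in the labels or wild type (WT). RelA is an activating subunit of the transcription factor NF-kB, and the study's title gives its subject as transactivation, to which TA may refer. The labels say no more of the allele. Both genotypes were starved overnight in medium with 0.5% bovine calf serum and were then left untreated or stimulated for 0.5, 1, 3 or 8 h. The stimulus was TNF at 10 ng/ml, LPS at 100 ng/ml, or the double-stranded RNA mimic Poly(I:C), which was used at 20 ug/ml. The TNF experiment held 2 libraries for each genotype and time, and the LPS and Poly(I:C) experiment held 1 library for each of 9 conditions in each genotype, with untreated libraries of its own. The labels do not say whether replicates were separate embryos or cultures, so p-values measure the spread between these samples, which may be technical. In bulk RNA, fewer cells of a type and less RNA per cell cannot be told apart.

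Libraries held 6715022 to 9590932 counted reads in the TNF experiment and 7021799 to 9431334 in the LPS and Poly(I:C) experiment. All 10 fibroblast markers were detected in every library. All 15 macrophage markers were also detected in every library, with a summed level of 1025 to 4280 CPM (counts scaled to library size after TMM normalization) in the TNF experiment and 3530 to 6095 CPM in the other. As a check of the genotype labels, Nfkbia, an NF-kB target that encodes an inhibitor of NF-kB, stood at 61.5 and 66.5 CPM in RelA-TA-KI cells after 1 h of TNF, against 599 and 626 CPM in WT cells.

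The members fell into 52 with a KRAB box, 95 without one and 1 (Zfp469, linked in humans to a fragile cornea) for which no coding sequence was found. The KRAB members had a median of 12 fingers and a median level of 4.61 CPM per kilobase of exon, and the others had a median of 8 fingers and 6.91 CPM per kilobase. Over all members the level per kilobase ran between 1.69 CPM for Zfp697 and 32.4 CPM for Zfp703, a corepressor of the same family as Zfp503, with a median of 6.10 CPM. Zfp146, at 31.5 CPM per kilobase, and Zfp106, an RNA-binding protein needed for motor neuron and muscle upkeep, at 27.7 CPM per kilobase, came next. Chromosome 7 carried 30 members and chromosome 17 carried 18, and 54 members lay within 200 kb of another.

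At 1 h of TNF, many numbered zinc finger genes were lower than in untreated cells, in both genotypes, and few were higher. In RelA-TA-KI cells 27 of 148 members (18.2%) fell and 2 rose (edgeR quasi-likelihood test, Benjamini-Hochberg adjusted p under 0.05), where 1.28% of the 13843 genes tested fell and 2% rose. In WT cells 32 members (21.6%) fell and 2 rose, where 1.24% of all genes fell and 2.57% rose. Among the 9064 genes with a mean of at least 100 reads, 1.21% fell in RelA-TA-KI cells and 1.31% in WT cells. The median log2 change of the members was -0.22 in RelA-TA-KI cells, where 122 of 148 changes were negative, and -0.21 in WT cells, where 118 were. The median over all genes tested was -0.0046 in RelA-TA-KI cells and -0.0038 in WT cells. With the replicate number as a block, 46 members were called in RelA-TA-KI cells. Leaving out 1 library lowered the number called to between 10 and 17 in RelA-TA-KI cells, for each of the 4 libraries of that comparison. In WT cells it lowered the number to 16 without untreated replicate 2 and to 17 without either 1 h library.

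Part of the fall at 1 h was shared between genotypes. The 17 members that fell in both made up 63.0% of those that fell in RelA-TA-KI cells and 53.1% of those that fell in WT cells, and the genotypes have separate untreated controls. No member differed in its 1 h response between genotypes by the main edgeR fit or by DESeq2. By edgeR, 0.00722% of all genes had a higher response and 0.303% a lower response in RelA-TA-KI cells. At an unadjusted p under 0.05, 13 of 148 members and 524 of the 13843 genes tested differed in their 1 h response. The edgeR fits with the replicate number as a block and with no filter on low counts each gave a call there. Across the 148 members the 1 h changes of both genotypes had a Pearson correlation of 0.75, given as a description because members of 1 library share its depth and composition.

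**Figure D1:**
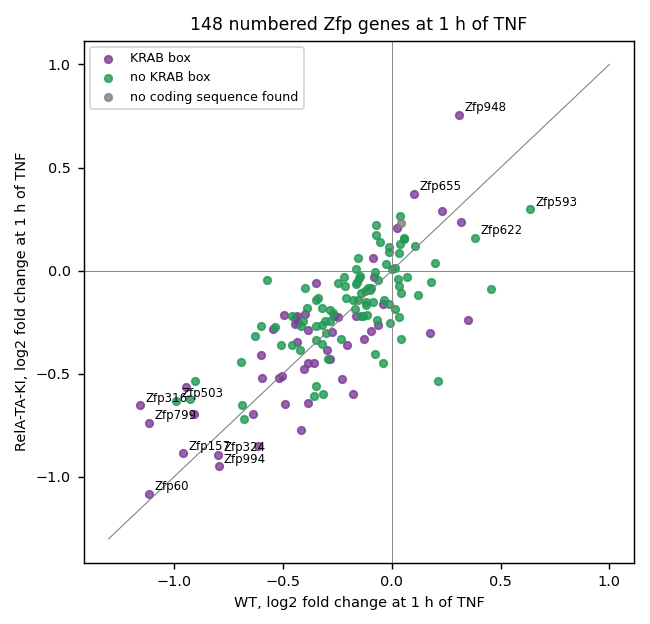
Each point is 1 numbered zinc finger gene, with its log2 change at 1 h of TNF in WT cells on the horizontal axis and in RelA-TA-KI cells on the vertical axis. Of the 148 points, 118 lie left of 0 and 122 lie below 0, and the 17 genes that fell in both genotypes sit at the lower left.

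Zfp60 gave the largest fall in RelA-TA-KI cells. This KRAB gene, whose protein has 19 fingers, stood at 14.2 and 15.8 CPM in RelA-TA-KI cells at 1 h, against 34.0 and 29.6 CPM in untreated RelA-TA-KI cells. In WT cells it stood at 11.8 and 14.0 CPM at 1 h, against 22.9 and 32.6 CPM untreated. The treated libraries lay below the untreated ones without overlap in both genotypes. For genes named by size of change, lack of overlap in that comparison was part of the choice, so it adds no support there. The log2 change of Zfp60 was -1.08 ± 0.15 (SE) in RelA-TA-KI cells (adjusted p = 0.000752) and -1.11 ± 0.15 in WT cells (adjusted p = 0.000381).

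Zfp316, another KRAB gene, gave the largest fall in WT cells. It stood at 11.8 and 14.5 CPM in RelA-TA-KI cells at 1 h, against 21.7 and 19.6 CPM untreated. In WT cells it stood at 8.02 and 9.67 CPM at 1 h, against 20.2 and 19.4 CPM untreated. Both pairs of treated libraries were below their controls, and the WT pair was the lower of them. The changes were -0.65 ± 0.13 in RelA-TA-KI cells (adjusted p = 0.00969) and -1.16 ± 0.13 in WT cells (adjusted p = 6.04e-05), and their difference of 0.50 ± 0.18 did not pass the test (adjusted p = 1). Zfp316 faces Zfp12, another KRAB gene, tail to tail on chromosome 5 with 863 bases between them, and Zfp12 also fell in both genotypes, with the RelA-TA-KI call lost without any 1 of its 4 libraries (adjusted p = 0.247 at the highest).

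Zfp799 stood at 14.1 and 12.8 CPM in RelA-TA-KI cells at 1 h, against 22.8 and 22.0 CPM untreated, and at 8.91 and 10.7 CPM in WT cells, against 20.9 and 21.5 CPM untreated. Zfp157, linked in mice to the differentiation of mammary luminal cells, stood at 11.1 and 12.4 CPM in RelA-TA-KI cells, against 21.6 and 21.8 CPM untreated, and at 8.91 and 12.3 CPM in WT cells, against 21.6 and 19.7 CPM untreated. Neither gene's treated and untreated libraries overlapped in either genotype. Zfp799 changed by -0.74 ± 0.14 in RelA-TA-KI cells (adjusted p = 0.00723) and -1.11 ± 0.14 in WT cells (adjusted p = 0.000182). Zfp157 changed by -0.89 ± 0.15 in RelA-TA-KI cells (adjusted p = 0.00473; 0.0844 without 1 h replicate 1) and -0.96 ± 0.16 in WT cells (adjusted p = 0.00211).

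**Figure D2:**
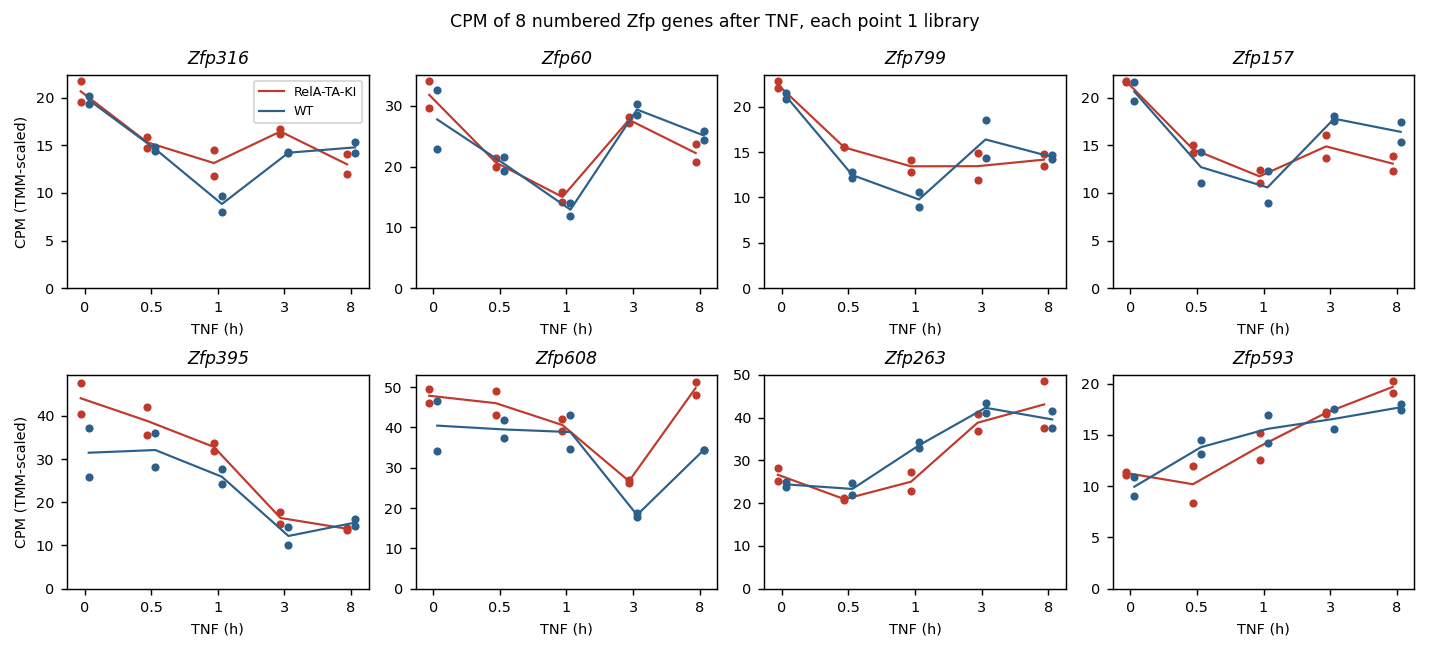
CPM of 8 members in each library of the TNF experiment by time after TNF, with times evenly spaced and RelA-TA-KI (red) and WT (blue) libraries as points. Zfp316, Zfp60, Zfp799 and Zfp157 dip at 1 h in both genotypes, Zfp395 and Zfp608 are lowest at 3 or 8 h, and Zfp263 and Zfp593 are highest late in the course.

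Promoter sequences of 6 members at the extremes of the response are shown because 4 of them (Zfp60, Zfp316, Zfp799 and Zfp157) were among those that fell furthest at 1 h of TNF and the other 2 (Zfp324 and Zfp281) among those that rose most with LPS. Each is the 300 bases of RefSeq (GRCm38.p6) from 250 before to 50 after the transcript start, 5′ to 3′ on the gene's strand, with capitals marking matches on either strand to the TATA box (TATAAA), the CCAAT box, the GC box (GGGCGG), the core of an ETS site (CCGGAAG), an E-box (CACGTG) or a short form of the NF-kB site, which is GGG, then 3 bases of any kind, then TTCC. The windows are chr7:27731159-27731458, plus strand, for Zfp60, chr5:143269973-143270272, minus strand, for Zfp316, chr17:32830212-32830511, minus strand, for Zfp799, chr5:138441226-138441525, plus strand, for Zfp157, chr7:12965588-12965887, plus strand, for Zfp324, and chr1:136624651-136624950, plus strand, for Zfp281.
Zfp60: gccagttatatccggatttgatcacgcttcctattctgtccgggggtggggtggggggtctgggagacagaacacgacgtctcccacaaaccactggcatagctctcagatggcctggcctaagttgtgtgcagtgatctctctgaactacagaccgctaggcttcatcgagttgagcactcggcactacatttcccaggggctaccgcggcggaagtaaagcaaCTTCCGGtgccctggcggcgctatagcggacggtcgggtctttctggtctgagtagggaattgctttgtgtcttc
Zfp316: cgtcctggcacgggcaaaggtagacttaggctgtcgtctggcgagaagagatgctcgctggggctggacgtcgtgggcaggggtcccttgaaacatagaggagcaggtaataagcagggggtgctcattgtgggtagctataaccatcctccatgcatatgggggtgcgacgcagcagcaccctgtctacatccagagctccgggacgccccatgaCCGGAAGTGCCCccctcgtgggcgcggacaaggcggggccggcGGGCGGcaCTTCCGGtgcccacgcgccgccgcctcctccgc
Zfp799: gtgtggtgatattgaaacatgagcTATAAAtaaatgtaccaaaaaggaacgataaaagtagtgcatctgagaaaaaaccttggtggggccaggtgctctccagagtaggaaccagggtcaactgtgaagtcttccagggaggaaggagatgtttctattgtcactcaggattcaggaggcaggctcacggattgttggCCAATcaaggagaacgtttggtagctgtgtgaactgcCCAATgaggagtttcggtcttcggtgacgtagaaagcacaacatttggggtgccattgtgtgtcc
Zfp157: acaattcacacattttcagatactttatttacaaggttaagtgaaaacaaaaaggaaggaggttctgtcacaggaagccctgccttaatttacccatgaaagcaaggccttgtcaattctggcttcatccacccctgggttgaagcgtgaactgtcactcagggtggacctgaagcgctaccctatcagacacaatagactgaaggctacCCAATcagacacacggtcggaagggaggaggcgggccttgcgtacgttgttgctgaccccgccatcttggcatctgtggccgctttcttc
Zfp324: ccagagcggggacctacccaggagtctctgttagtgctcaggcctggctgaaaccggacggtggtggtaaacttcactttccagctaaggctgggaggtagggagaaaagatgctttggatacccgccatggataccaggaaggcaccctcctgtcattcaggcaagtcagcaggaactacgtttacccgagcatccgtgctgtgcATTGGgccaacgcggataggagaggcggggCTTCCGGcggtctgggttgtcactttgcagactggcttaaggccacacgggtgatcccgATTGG
Zfp281: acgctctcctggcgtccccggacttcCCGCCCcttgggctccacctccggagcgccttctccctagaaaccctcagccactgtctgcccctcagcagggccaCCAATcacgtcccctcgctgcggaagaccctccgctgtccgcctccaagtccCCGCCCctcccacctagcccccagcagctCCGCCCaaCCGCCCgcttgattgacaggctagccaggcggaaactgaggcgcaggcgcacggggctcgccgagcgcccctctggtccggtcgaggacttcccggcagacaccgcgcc

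These windows differ in make-up. The Zfp799 window has 47.0% G and C and 6 CpG dinucleotides and holds TATAAA and CCAAT, while the Zfp281 window has 70.7% G and C and 27 CpG and holds GGGCGG and CCAAT. The Zfp316 window is the one of these 6 with a match to the short NF-kB form, and that match overlaps a CCGGAAG match. RefSeq promoters were found for 116 of the 148 members. CCGGAAG was in 19.8% of them, in 26.1% of the 46 KRAB members with a window, in 23.5% of the 17 members lower at 1 h in both genotypes, and in 9.12% of all 27025 promoters. GGGCGG was in 56.9% of members and 35.9% of all promoters, and the short NF-kB form was in 7.76% of members and 5.52% of all. That short form was in 7 of the 46 KRAB members with a window (15.2%). It was in 1 of the 17 members lower at 1 h in both genotypes (5.88%). CCAAT was in 42.2% of members and 37.9% of all promoters, TATAAA was in 8.62% of members and 14.2% of all, and CACGTG was in 10.3% of members and 7.24% of all. The members' windows had a median of 57.8% G and C and 17 CpG, against 52.7% and 7 in all promoters. The set of all promoters was not limited to genes with reads here, and no set of like CpG content was compared. CCGGAAG and GGGCGG each hold a CpG. A match describes letters and no binding site.

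Members with and without a KRAB box were set side by side at 1 h, as a description with no test of the difference. In RelA-TA-KI cells 20 of 52 KRAB members fell and 2 rose, with a median change of -0.34, and 7 of 95 members without a KRAB box fell and 0 rose, with a median of -0.14. In WT cells 17 KRAB members fell and 0 rose, with a median of -0.38, and 15 members without a KRAB box fell and 2 rose, with a median of -0.15. KRAB members also had fewer reads, with a median mean count of 160 against 283, and depth limits the size of change that can be called. Among members with a mean of at least 200 reads, the medians for 16 KRAB members were -0.22 in RelA-TA-KI cells and -0.25 in WT cells, and those for 65 others were -0.14 in RelA-TA-KI cells and -0.12 in WT cells. Among members with a mean under 200 reads, 36 KRAB members had medians of -0.46 in RelA-TA-KI cells and -0.43 in WT cells, and 30 others had medians of -0.24 in RelA-TA-KI cells and -0.32 in WT cells. The 1997 genes of all kinds with 100 to 200 reads had medians of -0.05 in RelA-TA-KI cells and -0.04 in WT cells. The Spearman correlation of the change with the number of fingers was -0.31 in RelA-TA-KI cells and -0.35 in WT cells, and with the mean count it was 0.38 in RelA-TA-KI cells and 0.35 in WT cells, as descriptions.

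**Figure D3:**
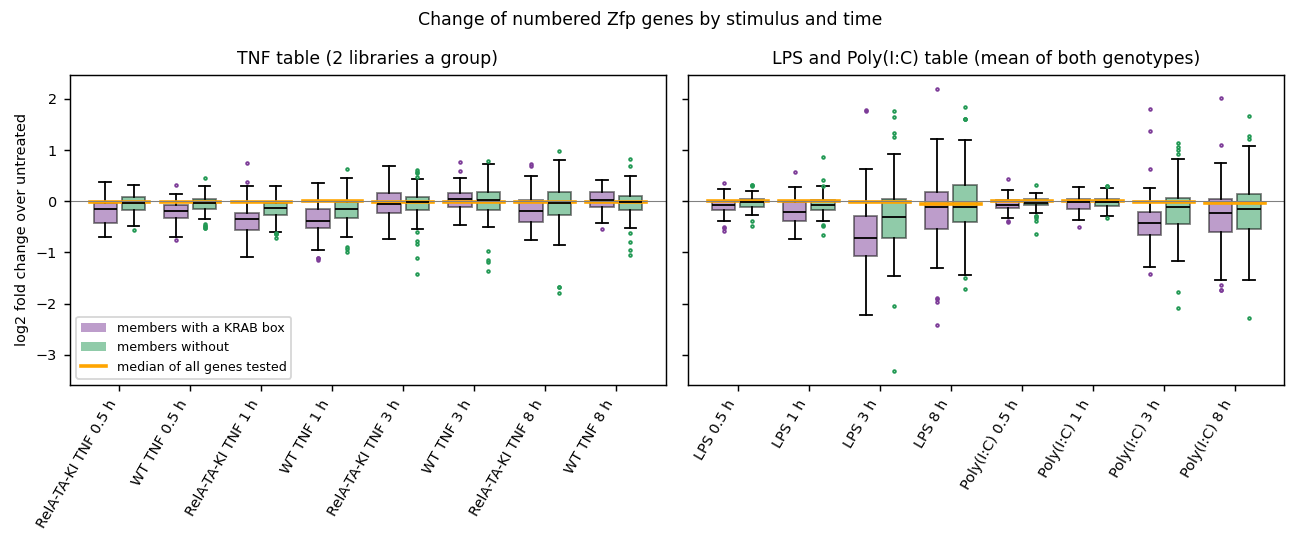
Boxes show the log2 change against untreated cells of members with a KRAB box (purple) and without one (green) for TNF in each genotype and for LPS and Poly(I:C) averaged over genotypes, and orange marks the median of all genes tested. The KRAB boxes lie lowest at 1 h of TNF, with medians of -0.34 in RelA-TA-KI cells and -0.38 in WT cells, and at 3 h of LPS and Poly(I:C), with medians of -0.71 and -0.42. Members with a KRAB box also had fewer reads, and the boxes are not split by read count.

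Other families of finger genes from fixed lists gave small counts at 1 h. Of 9 Zkscan and Zscan genes, which carry a SCAN domain beside their fingers, 3 fell in RelA-TA-KI cells and 2 in WT cells, with medians of -0.29 in RelA-TA-KI cells and -0.27 in WT cells. Of 26 Zbtb genes, which carry a BTB domain, 0 fell and 2 rose in RelA-TA-KI cells, and 1 fell and 2 rose in WT cells. Their medians were -0.04 in RelA-TA-KI cells, where 15 changes were negative, and -0.12 in WT cells, where 19 were. Of 29 tested genes of KRAB corepressor and silencing complexes, 0 were called in RelA-TA-KI cells by edgeR, with 4 at an unadjusted p under 0.05. In WT cells Resf1, a partner of SETDB1, rose by 0.91 and Daxx, a histone H3.3 chaperone, changed by -0.47. The Resf1 response was lower in RelA-TA-KI cells than in WT cells by a log2 difference of -0.96. Zfp760, Zfp128 and Zfp174, named in earlier results of these data, had means of 72.45, 34.6 and 38 reads and are not members.

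At 0.5 h few members were called. In RelA-TA-KI cells 4 members fell and 0 rose, where 0.238% of all genes fell and 0.831% rose, and in WT cells 5 fell and 0 rose, where 0.13% fell and 0.91% rose. The median change was -0.08 in both genotypes. Zfp866, a KRAB gene, fell in both, at 13.9 and 14.8 CPM in RelA-TA-KI cells at 0.5 h, against 23.7 and 23.1 CPM untreated, and at 14.7 and 13.0 CPM in WT cells, against 21.9 and 22.8 CPM untreated. Its treated libraries all lay below its untreated ones, with changes of -0.70 ± 0.10 in RelA-TA-KI cells (adjusted p = 0.00262) and -0.69 ± 0.11 in WT cells (adjusted p = 0.00286). The call was lost without RelA-TA-KI 0.5 h replicate 1 or without WT 0.5 h replicate 2. The 0.5 h calls of Zfp553, Zfp160 and Zfp26 in RelA-TA-KI cells were each lost without at least 1 library. So were those of Zfp799, Zfp157, Zfp629 and Zfp655 in WT cells. With the replicate number as a block, 23 members were called at 0.5 h in RelA-TA-KI cells and 12 in WT cells.

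At 3 h the 4 members that fell furthest in each genotype, Zfp395, Zfp503, Zfp521 and Zfp608, carry no KRAB box. In RelA-TA-KI cells 21 members fell (14.2%) and 9 rose (6.08%), where 8.08% of all genes fell and 10.9% rose. In WT cells 9 fell (6.08%) and 13 rose (8.78%), where 6.36% of all genes fell and 9.32% rose, so that the WT shares lay near those of all genes. With the replicate number as a block, 41 members were called in WT cells. Leaving out 1 library gave 8 to 18 calls in RelA-TA-KI cells, for each of the 4 libraries, and 13 in WT cells without untreated replicate 2. Scaled to library size alone, 30 members fell and 5 rose in RelA-TA-KI cells, and 17 fell and 11 rose in WT cells.

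At 8 h the calls in RelA-TA-KI cells were more numerous, as they were for all genes. In RelA-TA-KI cells 38 members fell (25.7%) and 21 rose (14.2%), where 20.5% of all genes fell and 21.6% rose. In WT cells 9 fell (6.08%) and 11 rose (7.43%), where 8.8% of all genes fell and 12% rose. The 9 that fell in WT cells made up 23.7% of those that fell in RelA-TA-KI cells, where they all fell too. Leaving out untreated replicate 2 lowered the number called in RelA-TA-KI cells to 34, and leaving out 1 library gave 7 to 13 calls in WT cells, for each of the 4 libraries. Scaled to library size alone, with no TMM factor, 65 members fell and 12 rose at 8 h in RelA-TA-KI cells, with the median of all genes at -0.16 and that of the members at -0.22. In WT cells 12 fell and 5 rose under that scaling. The summed macrophage markers stood at 2240 and 4280 CPM in RelA-TA-KI cells at 8 h, against 1496 and 2533 CPM untreated, and their part in the result was not tested.

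Zfp395, whose human counterpart binds the promoter of the huntingtin gene, fell at 3 and 8 h. In RelA-TA-KI cells it stood at 14.9 and 17.8 CPM at 3 h and at 14.1 and 13.6 CPM at 8 h, against 40.5 and 47.6 CPM untreated. Its WT libraries stood at 10.2 and 14.2 CPM at 3 h and at 14.5 and 16.1 CPM at 8 h, against 25.8 and 37.1 CPM untreated. Treated and untreated libraries did not overlap in either genotype. At 8 h the change was -1.67 ± 0.19 in RelA-TA-KI cells (adjusted p = 1e-05) and -1.05 ± 0.19 in WT cells (adjusted p = 0.00116), and the difference between genotypes did not pass the test (adjusted p = 0.186).

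Zfp608, which restrains expression of the recombinase genes in thymocytes, was low at 3 h and back near its untreated level at 8 h. In RelA-TA-KI cells it stood at 27.1 and 26.3 CPM at 3 h and at 51.4 and 48.2 CPM at 8 h, against 49.6 and 46.1 CPM untreated. The WT libraries stood at 17.8 and 18.7 CPM at 3 h and at 34.3 and 34.4 CPM at 8 h, against 34.2 and 46.7 CPM untreated. The 3 h libraries lay below the untreated ones in both genotypes, and the 8 h libraries overlapped them in both. The 3 h changes were -0.84 ± 0.13 in RelA-TA-KI cells (adjusted p = 0.000914) and -1.15 ± 0.14 in WT cells (adjusted p = 6.66e-05).

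Among members that rose, Zfp263, a DNA-binding repressor, and Zfp593, whose human counterpart takes part in making the large ribosomal subunit, did so in both genotypes. At 8 h Zfp263 stood at 37.6 and 48.6 CPM in RelA-TA-KI cells, against 28.1 and 25.2 CPM untreated, and at 41.5 and 37.7 CPM in WT cells, against 23.8 and 25.0 CPM untreated. At 8 h Zfp593 stood at 19.1 and 20.3 CPM in RelA-TA-KI cells, against 11.4 and 11.1 CPM untreated, and at 17.4 and 18 CPM in WT cells, against 8.99 and 10.9 CPM untreated. All treated libraries of both genes were above their controls. The 8 h change of Zfp263 was 0.70 ± 0.12 in each genotype (adjusted p = 0.000443 in RelA-TA-KI cells and 0.00109 in WT cells), and that of Zfp593 was 0.80 ± 0.16 in RelA-TA-KI cells (adjusted p = 0.00105) and 0.82 ± 0.16 in WT cells (adjusted p = 0.00228).

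Zfp622 and Zfp598 gave smaller changes. Zfp622, which acts late in maturation of the large ribosomal subunit, rose at 1 h in WT cells by 0.38 ± 0.06 (adjusted p = 0.00242), at 65.8 and 69.6 CPM against 52.2 and 51.7 CPM untreated. In RelA-TA-KI cells it stood at 56.5 and 52.6 CPM at 1 h, against 49.4 and 48.5 CPM untreated, and did not pass the test (adjusted p = 0.215). It passed at 3 h in both genotypes, with changes of 0.27 in RelA-TA-KI cells and 0.26 in WT cells, each lost without 3 of its 4 libraries (adjusted p = 0.0974 and 0.0993 at the highest). Zfp598, a ubiquitin ligase that acts on collided ribosomes, rose at 3 h by 0.47 ± 0.09 in RelA-TA-KI cells (adjusted p = 0.00385; 0.0697 without untreated replicate 2) and by 0.39 in WT cells (adjusted p = 0.0105; 0.0705 without untreated replicate 1 and 0.0723 without 3 h replicate 2).

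The 2 members that rose at 1 h in RelA-TA-KI cells were both KRAB genes. Zfp948 stood at 31.8 and 38.3 CPM in RelA-TA-KI cells at 1 h, against 20.8 and 20.7 CPM untreated, a change of 0.76 ± 0.11 (adjusted p = 0.0012). In WT cells it stood at 27.7 and 24.5 CPM at 1 h, against 20.6 and 21.5 CPM untreated, a change of 0.31 ± 0.11 that did not pass (adjusted p = 0.178). The treated libraries lay above the untreated ones in both genotypes, and the responses did not differ between genotypes by the test (adjusted p = 0.968). Zfp655 rose by 0.37 ± 0.06 in RelA-TA-KI cells (adjusted p = 0.00227), at 91.0 and 94.9 CPM against 73.0 and 70.7 CPM untreated.

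In untreated cells, no member differed between genotypes by the main edgeR fit or by DESeq2. By edgeR, 0% of all genes were higher in RelA-TA-KI cells and 0.00722% lower. At an unadjusted p under 0.05 there were 13 of 148 members and 1280 of the 13843 genes tested. Calls did appear in the edgeR fits with the replicate number as a block and with no filter on low counts. Averaged over the 5 times of the TNF experiment, 5 members were higher in RelA-TA-KI cells and 5 lower, where 4.56% of all genes were higher and 5.54% lower. Zfp608 was higher by 0.32 ± 0.06 (adjusted p = 0.00419), Zfp704 by 0.34 ± 0.08 (adjusted p = 0.0174; 0.0510 without RelA-TA-KI 0.5 h replicate 2 and 0.0508 without RelA-TA-KI 3 h replicate 2) and Zfp9 by 0.18 ± 0.04 (adjusted p = 0.0078). Zfp160 was lower, by -0.20 ± 0.04 (adjusted p = 0.0108). Each direction held 3.38% of the members, less than the share of all genes. The fit took libraries of the 5 times as separate samples, though same-numbered libraries of a genotype deviated together (correlations of 0.161 to 0.529). The p-values of this mean may thus be too small for a difference between genotypes.

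The responses to TNF were compared between genotypes by the test of the difference. At 0.5 h, 0 members differed by edgeR or DESeq2, where 0% of all genes had a higher response in RelA-TA-KI cells and 0.0506% a lower one. An unadjusted p under 0.05 at 0.5 h was found for 8 of 148 members and 328 of the 13843 genes tested. At 3 h, 1 member was higher and 1 lower, where 0.202% of all genes were higher and 0.73% lower. At 8 h, 1 was higher and 4 lower, where 3.45% of all genes were higher and 3.42% lower. Leaving out 1 library gave 0 to 1 calls at 3 h and 1 to 6 at 8 h. Scaled to library size alone, 0 were higher and 1 lower at 3 h, and 0 were higher and 11 lower at 8 h. With the replicate number as a block shared by both genotypes, 1 was higher and 2 lower at 3 h, and 8 were higher and 17 lower at 8 h. Same-numbered libraries of different genotypes correlated by over 0.1 in 24 of 25 pairs of groups.

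Zfp503, a corepressor that patterns the striatum and limb, differed at both times in opposite directions. At 3 h it stood at 67.9 and 69.6 CPM in RelA-TA-KI cells, against 120 and 116 CPM untreated, and at 51.3 and 51.1 CPM in WT cells, against 113 and 121 CPM untreated. At 8 h it stood at 36.4 and 37.7 CPM in RelA-TA-KI cells and at 61.9 and 59.6 CPM in WT cells. Its RelA-TA-KI libraries were thus the higher ones at 3 h and the lower ones at 8 h, with no overlap. The response difference was 0.42 ± 0.09 at 3 h (adjusted p = 0.0308; lost without 7 of the 8 libraries, each left out in turn) and -0.72 ± 0.09 at 8 h (adjusted p = 0.000372; kept without any 1 of the 8).

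Zfp521, which restrains fat cell differentiation by inhibiting Ebf1, stood at 39.3 and 35.7 CPM in RelA-TA-KI cells at 8 h, against 121 and 137 CPM untreated. In WT cells it stood at 69.0 and 82.2 CPM at 8 h, against 99.8 and 131 CPM untreated. All 8 h libraries lay below their controls, and both RelA-TA-KI libraries lay below both WT libraries. The change was -1.79 ± 0.17 in RelA-TA-KI cells (adjusted p = 2.38e-06) and -0.61 ± 0.16 in WT cells (adjusted p = 0.0152), with a difference of -1.17 ± 0.24 (adjusted p = 0.00965). The WT call was lost without 8 h replicate 1 or untreated replicate 2 (adjusted p = 0.214 at the highest). The response difference was lost without WT untreated replicate 1 or without RelA-TA-KI 8 h replicate 2 (adjusted p = 0.0534 at the highest).

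Zfp275 rose in WT cells at 3 h, where it stood at 112 and 124 CPM against 75.0 and 77.1 CPM untreated, while in RelA-TA-KI cells it stood at 77.2 and 86.5 CPM, against 81.7 and 84.6 CPM untreated. The WT libraries separated and the RelA-TA-KI libraries overlapped. The WT change was 0.63 ± 0.08 (adjusted p = 8.34e-05), the RelA-TA-KI change was -0.02 ± 0.08 (adjusted p = 0.87), and their difference was -0.66 ± 0.11 (adjusted p = 0.0104; lost without 4 of 8 libraries, 0.0737 at the highest). Zfp984 and Zfp90, both KRAB genes, had lower responses in RelA-TA-KI cells at 8 h, by -0.88 ± 0.19 (adjusted p = 0.0154) and -0.78 ± 0.20 (adjusted p = 0.0322). Zfp462, a protein of heterochromatin complexes with many fingers, had a higher one, by 0.91 ± 0.26 (adjusted p = 0.0496). These calls were lost without 4 of 8 libraries for Zfp984, 7 for Zfp90 and 7 for Zfp462.

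**Figure D4:**
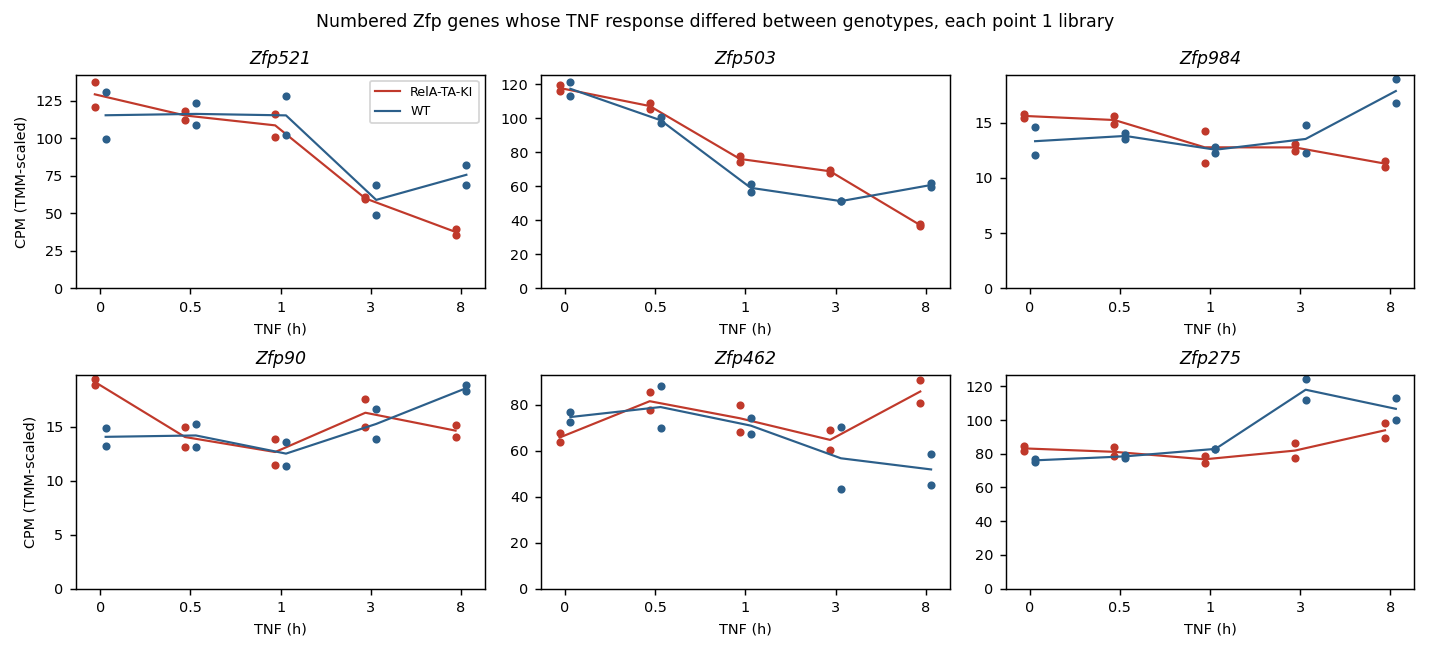
CPM of the 6 members whose TNF response differed between genotypes, in each library by time, with times evenly spaced and RelA-TA-KI in red and WT in blue. At 8 h Zfp521 is at 39.3 and 35.7 CPM in RelA-TA-KI cells and at 69.0 and 82.2 CPM in WT cells, and Zfp462 is the one of the 6 with higher RelA-TA-KI libraries at that time.

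LPS is sensed by a membrane receptor and Poly(I:C) by endosomal and cytosolic RNA sensors. Their responses were tested as the mean over both genotypes, which stand in as replicates, so p-values there measure how far the 2 genotypes differ in their changes. Both stimuli share 1 untreated library per genotype. At 0.5 and 1 h no member was called by edgeR for either stimulus. For LPS, 7 members at 0.5 h and 24 at 1 h had an unadjusted p under 0.05, and DESeq2 called 0 and 1 of them, while 0.131% of all genes rose and 0.00727% fell at 0.5 h, and 0.829% rose and 0.124% fell at 1 h. For Poly(I:C), 2 members at 0.5 h and 3 at 1 h had an unadjusted p under 0.05, and DESeq2 called 0 at either time. Over all genes tested, 214 at 0.5 h and 544 at 1 h had an unadjusted p under 0.05. By the adjusted p, 0.00727% of all genes rose and 0% fell at 0.5 h, and 0% rose and 0% fell at 1 h.

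At 3 h of LPS most members fell. Of 148 members, 80 fell (54.1%) and 16 rose (10.8%), where 22.2% of the 13759 genes tested fell and 22.5% rose. Among the 1997 genes of all kinds with a mean of 100 to 200 reads in the TNF experiment, 31.3% fell, with a median of -0.19. The median change was -0.43, against -0.01 for all genes, with 34 of 52 KRAB members lower (median -0.71) and 45 of 95 members without a KRAB box lower (median -0.31). At 3 h of Poly(I:C), 49 members fell (33.1%) and 12 rose (8.11%), where 7.51% of all genes fell and 11% rose, and the median was -0.27, against -0.01 for all genes. Of the 1997 genes with 100 to 200 reads, 9.51% fell at 3 h of Poly(I:C), with a median of -0.08. There 24 KRAB members and 25 members without a KRAB box were lower, with medians of -0.42 and -0.12, again with no test of the difference. KRAB members also had fewer reads. Under 200 reads, the medians with and without a KRAB box were -0.79 and -0.57 for LPS, and -0.42 and -0.31 for Poly(I:C). With at least 200 reads they were -0.52 and -0.22 for LPS, and -0.45 and -0.06 for Poly(I:C). Over all members, the medians of the single genotypes at 3 h of LPS were -0.51 in RelA-TA-KI cells and -0.38 in WT cells, and at 3 h of Poly(I:C) they were -0.29 in RelA-TA-KI cells and -0.23 in WT cells.

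At 8 h the shares were closer to those of all genes. At 8 h of LPS 46 members fell (31.1%) and 32 rose (21.6%), where 32.3% of all genes fell and 30.4% rose. At 8 h of Poly(I:C) 55 fell (37.2%) and 22 rose (14.9%), where 24.9% of all genes fell and 24.9% rose. Among genes of all kinds with 100 to 200 reads, 38.8% fell at 8 h of LPS and 31.6% at 8 h of Poly(I:C). TMM factors spanned 0.721 to 1.18 in these libraries, and scaling to library size alone moved the median of all genes to -0.49 at 3 h and -0.76 at 8 h of LPS, and to -0.25 at 3 h and -0.53 at 8 h of Poly(I:C). Under that scaling 117 members fell and 6 rose at 3 h of LPS, 116 fell and 7 rose at 8 h of LPS, 79 fell and 7 rose at 3 h of Poly(I:C), and 108 fell and 9 rose at 8 h of Poly(I:C). The median of the members was then -0.91 at 3 h and -0.81 at 8 h of LPS, and -0.52 at 3 h and -0.69 at 8 h of Poly(I:C).

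Many of the genes that fell at 1 h of TNF also fell at 3 h of LPS, in separate libraries. Of the 27 members that fell at 1 h of TNF in RelA-TA-KI cells, 22 (81.5%, or 27.5% of the LPS list) fell at 3 h of LPS, and of the 32 in WT cells, 25 (78.1%, or 31.25% of the LPS list) did. With Poly(I:C) at 3 h, 18 of the 27 in RelA-TA-KI cells (66.7%, or 36.7% of the Poly(I:C) list) and 21 of the 32 in WT cells (65.6%, or 42.9% of the Poly(I:C) list) were shared. At 8 h of LPS 14 of the 27 in RelA-TA-KI cells (51.9%) and 14 of the 32 in WT cells (43.75%) were among the 46 that fell. The shares at 3 h stand against 54.1% of all members lower at 3 h of LPS and 33.1% at 3 h of Poly(I:C). Both experiments were scaled and tested apart.

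Zfp395 was the member that fell furthest at 3 h of LPS. It stood at 7.0 CPM in RelA-TA-KI cells and at 5.05 CPM in WT cells, against 55.8 CPM in untreated RelA-TA-KI cells and 66.1 CPM in untreated WT cells, a mean change of -3.31 ± 0.41 (adjusted p = 5.44e-05). At 3 h of Poly(I:C) it stood at 16 CPM in RelA-TA-KI cells and at 12.1 CPM in WT cells, a change of -2.08 ± 0.36 (adjusted p = 0.00164). It was low in both genotypes under both stimuli.

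Zfp316, Zfp157, Zfp60 and Zfp799, all KRAB genes with a fall at 1 h of TNF, also fell at 3 and 8 h of LPS. At 3 h of LPS Zfp316 stood at 3.86 CPM in RelA-TA-KI cells and at 7.04 CPM in WT cells, against 24.0 CPM in untreated RelA-TA-KI cells and 23.4 CPM in untreated WT cells, a change of -2.14 ± 0.19 (adjusted p = 4.66e-06). Zfp157 changed by -2.23 ± 0.30 (adjusted p = 8.78e-05) and Zfp60 by -1.80 ± 0.22 (adjusted p = 4.24e-05). At 8 h of LPS Zfp799 stood at 4.93 CPM in RelA-TA-KI cells and at 6.69 CPM in WT cells, against 22.9 CPM in untreated RelA-TA-KI cells and 22.5 CPM in untreated WT cells, a change of -1.97 ± 0.20 (adjusted p = 6.71e-06). Zfp369, a KRAB gene, changed by -2.43 ± 0.30 at that time (adjusted p = 2.37e-05). None of these genes had a treated library at 3 or 8 h as high as its untreated libraries.

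The largest rises were in a mixed set of genes. Zfp324, a KRAB gene, stood at 49.7 CPM in RelA-TA-KI cells and at 77.1 CPM in WT cells at 3 h of LPS, and at 81.7 CPM in RelA-TA-KI cells and 86.4 CPM in WT cells at 8 h, against 19.0 CPM in untreated RelA-TA-KI cells and 17.4 CPM in untreated WT cells. Its changes were 1.78 ± 0.18 at 3 h (adjusted p = 1.06e-05) and 2.20 ± 0.18 at 8 h of LPS (adjusted p = 1.06e-06), and 1.81 ± 0.18 at 3 h and 2.01 ± 0.18 at 8 h of Poly(I:C) (adjusted p = 1.79e-05 and 3.75e-06). The same gene fell at 1 h of TNF, to 9.76 and 9.72 CPM in RelA-TA-KI cells, against 19.0 and 17.2 CPM untreated, and to 7.63 and 10.2 CPM in WT cells, against 15.7 and 15.3 CPM untreated. Those changes were -0.89 ± 0.14 in RelA-TA-KI cells (adjusted p = 0.00219) and -0.80 ± 0.14 in WT cells (adjusted p = 0.00425; 0.0703 without 1 h replicate 1).

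Zfp281, which represses Nanog in mouse embryonic stem cells, stood at 133 CPM in RelA-TA-KI cells and at 154 CPM in WT cells at 3 h of LPS, and at 150 CPM in RelA-TA-KI cells and 176 CPM in WT cells at 8 h, against 47.4 CPM in untreated RelA-TA-KI cells and 44.0 CPM in untreated WT cells. The changes were 1.65 ± 0.17 at 3 h (adjusted p = 1.28e-05) and 1.84 ± 0.17 at 8 h (adjusted p = 3.12e-06). Its paralog Zfp148 (ZBP-89) did not pass at any of these times, with changes of -0.11 ± 0.08 at 3 h (adjusted p = 0.283) and -0.05 ± 0.08 at 8 h of LPS (adjusted p = 0.563). Under TNF, Zfp281 rose at 3 h in WT cells by 0.49 ± 0.09 (adjusted p = 0.00241) and changed by 0.08 in RelA-TA-KI cells (adjusted p = 0.566). The test of the difference did not call its 3 h response as different between genotypes. Zfp945, Zfp800 and Zfp513, which regulates rhodopsin and other retinal genes in humans, also rose at 3 h of LPS, by 1.77 ± 0.14 (adjusted p = 1.36e-06), 1.76 ± 0.22 (adjusted p = 6.36e-05) and 1.25 ± 0.14 (adjusted p = 2.27e-05).

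**Figure D5:**
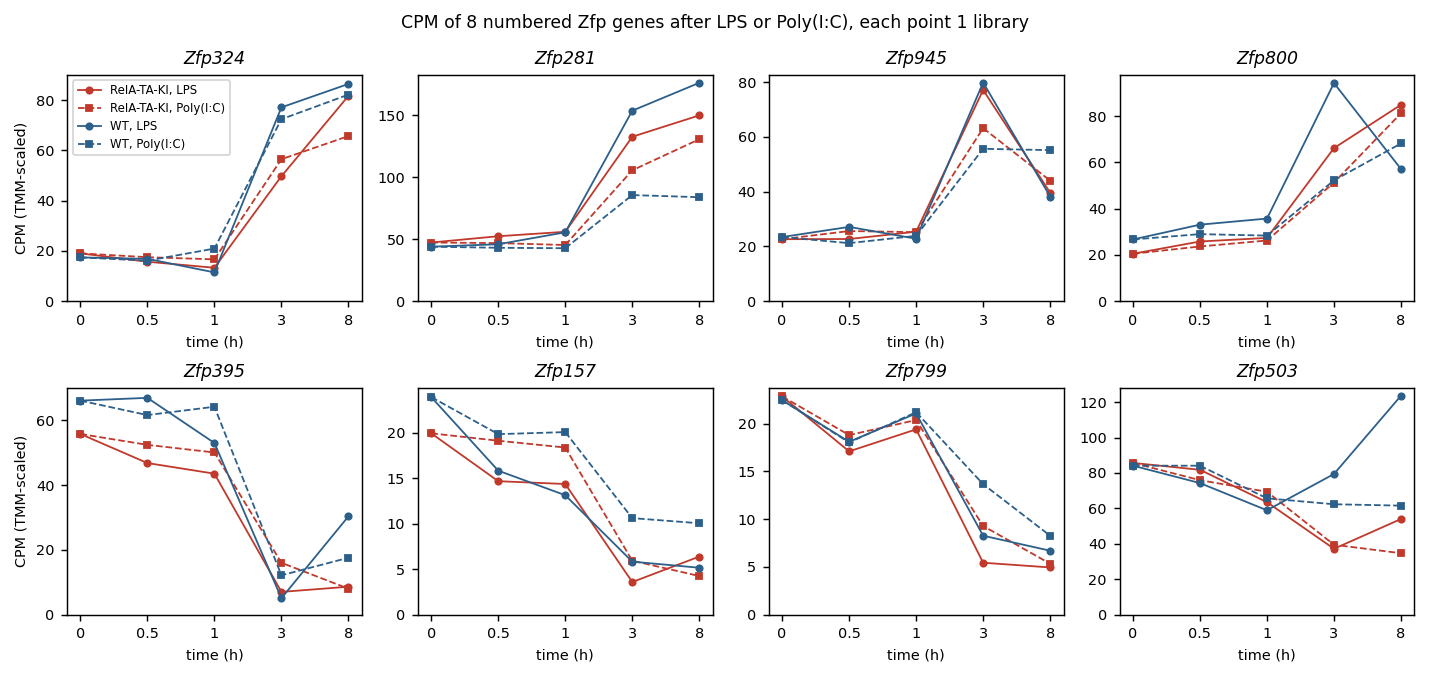
CPM of 8 members by time, evenly spaced, with LPS solid and Poly(I:C) dashed, RelA-TA-KI in red and WT in blue, and 1 library per point. Zfp324 and Zfp281 stand above their untreated level at 3 and 8 h of both stimuli in both genotypes, Zfp395, Zfp157 and Zfp799 stand below it, and Zfp503 at 8 h of LPS is at 54.0 CPM in RelA-TA-KI cells and 124 CPM in WT cells.

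A genotype difference shared by the 9 conditions of the LPS and Poly(I:C) experiment was called for 17 members. Of these, 5 were higher in RelA-TA-KI cells (3.38% of members) and 12 lower (8.11%), where 7.62% of all genes were higher and 8.33% lower. The lower share was thus near that of all genes, and the higher share was below it. Zfp948 was higher by 0.45 ± 0.10 (adjusted p = 0.0113), Zfp462 by 0.44 ± 0.10 (adjusted p = 0.0106) and Zfp219 by 0.22 ± 0.06 (adjusted p = 0.0175). Zfp292 was lower, by -0.34 ± 0.08 (adjusted p = 0.0156). Leaving out the 0.5 or 1 h of LPS lowered the number to 9, leaving out 0.5 or 3 h of Poly(I:C) to 10, and leaving out 3 h of LPS to 11. In the shared test the 9 conditions stood in as replicates of genotype. A lasting difference between cultures or embryos cannot be told apart from genotype there. A genotype difference at 1 condition alone cannot be tested with 1 library a condition. Zfp503 stood at 54.0 CPM in RelA-TA-KI cells and 124 CPM in WT cells at 8 h of LPS, against 85.6 CPM in untreated RelA-TA-KI cells and 84.1 CPM in untreated WT cells, with no replicate of these libraries.

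Members with well-known roles gave the following values. Zfp568, the KRAB repressor of a placental Igf2 transcript, rose by 0.50 at 8 h of TNF in RelA-TA-KI cells (adjusted p = 0.00964) and changed by -0.07 in WT cells (adjusted p = 0.777). The RelA-TA-KI call was lost without untreated replicate 2 or without 8 h replicate 2. Its 8 h TNF response was not called as different between genotypes. At 3 h Zfp568 fell by 0.76 with LPS (adjusted p = 0.0321) and by 0.89 with Poly(I:C) (adjusted p = 0.0307). Zfp57, which keeps imprints methylated, passed in none of the TNF or LPS responses, and was higher in RelA-TA-KI cells across the 9 conditions by 0.45 ± 0.13 (adjusted p = 0.0391), a call lost in 7 of the 9 fits that each left out 1 condition. Zfp91, a ubiquitin ligase for the kinase NIK of the alternative NF-kB pathway, stood at 193 and 193 CPM in RelA-TA-KI cells at 1 h of TNF, against 192 and 191 CPM untreated, and changed by 0.01 (adjusted p = 0.944). In WT cells Zfp91 stood at 192 and 194 CPM, against 197 and 188 CPM untreated. Zfp91 fell by 0.19 at 3 h of LPS (adjusted p = 0.0379), a call lost with no filter on low counts.

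Zfp703 was lower under both LPS and Poly(I:C), with changes of -1.28 ± 0.14 at 3 h (adjusted p = 2.35e-05) and -0.55 ± 0.14 at 8 h of LPS (adjusted p = 0.00468), and -1.17 ± 0.14 at 3 h and -1.02 ± 0.14 at 8 h of Poly(I:C) (adjusted p = 9.5e-05 and 0.000125). Under TNF it did not pass in either genotype. Zfp207, which binds the mitotic checkpoint protein Bub3, rose at 8 h of LPS by 0.93 ± 0.10 (adjusted p = 8.92e-06), or by 0.23 with library size alone. Zfp106 changed by 0.50 ± 0.11 (adjusted p = 0.00184), and by -0.20 with library size alone. Zfp217, an oncogene product in human breast tumours, rose at 8 h of LPS by 0.87 ± 0.14 (adjusted p = 0.000164), and changed by 0.17 with library size alone, which ended the call. Zfp451, a SUMO ligase, rose by 0.50 at 8 h of TNF in RelA-TA-KI cells (adjusted p = 0.000242), changed by 0.20 in WT cells (adjusted p = 0.113), and fell by 0.43 at 3 h of LPS (adjusted p = 0.0111). Zfp143, which joins promoters to distant chromatin, rose by 0.41 at 8 h of TNF in WT cells (adjusted p = 0.0139; lost without 3 of 4 libraries) and changed by 0.18 in RelA-TA-KI cells (adjusted p = 0.216). For Zfp451 and Zfp143 the 8 h TNF response was not called as different between genotypes.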

How the data were processed

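Per the submitters' processing notes, the authors' tools were cutadapt 1.9.1, STAR, featureCounts 1.4.6 and DESeq2, with the mm10 build. The sources used here do not give the annotation release, whether strand was used in counting, or what was done with multi-mapping reads. What the authors deposited is a table of raw read counts by gene for each of the 2 experiments, and 45143 of 45706 gene identifiers matched a symbol. Libraries were poly(A)-selected, stranded and read from 1 end, per the labels' protocols.

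Genes were tested with the edgeR 4.0.16 quasi-likelihood test in R 4.3.3, with TMM normalization, filterByExpr and Benjamini-Hochberg adjustment over all genes kept in each table, and a gene is called at an adjusted p under 0.05. All 148 members passed the filter in both tables. The TNF fit had a mean for each of 10 groups and 10 residual degrees of freedom. The LPS and Poly(I:C) fit had 9 conditions plus genotype and 8 residual degrees of freedom. SE was obtained from the log2 change and its F statistic, and CPM uses TMM-scaled library sizes. Within a genotype, deviations of same-numbered libraries correlated by 0.161 to 0.529 over 20 pairs of groups, so the numbers were taken to pair libraries there, and the fit with the replicate number as a block is given where it moved a count. Alternatives were DESeq2 size factors, DESeq2 1.42.0, no filter, each library left out, and, added after the TMM factors were seen, library size alone. The fit was tested on simulated data. Tables were handled with Python 3.11.15, pandas 2.3.3 and numpy 2.4.6.

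The KRAB box and fingers were found in translated coding sequences of the reference annotation, with a window of 37 residues scored against a consensus built from 141 windows (score of at least 17), and not in RefSeq proteins as first planned. Members and lists were chosen with earlier results of these data known. Chosen for naming were, in each comparison, up to 6 called members of largest change in each direction whose groups do not overlap, members near the count minimum, members of highest level per length, and members of known role. Not all of those chosen are described in the text. Resf1, Daxx and the neighbour Zfp12 were named after their values were seen.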

Additional observations from a re-analysis of the deposited data

Results flagged for a closer look

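In 7 cases the response to TNF differed between genotypes by the edgeR test of the difference itself. As log2 differences of the RelA-TA-KI response minus the WT response, they were -0.66 for Zfp275 and 0.42 for Zfp503 at 3 h, and -1.17 for Zfp521, -0.72 for Zfp503, -0.88 for Zfp984, -0.78 for Zfp90 and 0.91 for Zfp462 at 8 h. The 8 h difference of Zfp503 kept its call without any 1 of the 8 libraries, and the other 6 lost theirs without at least 1. With 2 libraries a group, samples were not screened for outliers.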

How the results depend on the processing

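Counts of called members are given here where they moved by more than 1.5 times. The cause was not tested, apart from fewer samples where a library was left out. With no filter on low counts, 12 members were called at 0.5 h in RelA-TA-KI cells, the response differences numbered 1 at 1 h, 1 at 3 h and 10 at 8 h, untreated cells of both genotypes differed for 1, and the genotype difference of the LPS and Poly(I:C) experiment was called for 9. With DESeq2, WT cells had 2, 21, 14 and 11 calls at 0.5, 1, 3 and 8 h, 1 response differed at 3 h, 5 members differed over the mean of the 5 times, and 1 was called at 1 h of LPS. With library size alone, 7 members were called at 0.5 h in RelA-TA-KI cells, 1 response differed at 3 h and 11 at 8 h, and 123 members were called at 8 h of LPS and 117 at 8 h of Poly(I:C). With the replicate block, 12 members were called at 0.5 h and 41 at 3 h in WT cells and 23 at 0.5 h and 46 at 1 h in RelA-TA-KI cells. Across genotypes 24 of 25 correlations of same-numbered libraries were over 0.1, with a median of 0.212, and the lowest was 0.00558. Most pairs of groups thus met the limit of 0.1 across genotypes, but not all. With the replicate block there, 1 response differed at 1 h and 25 at 8 h, 5 members differed in untreated cells and 21 over the mean of the 5 times. Leaving out 1 library gave, for RelA-TA-KI cells at 0.5, 1, 3 and 8 h, ranges of 1 to 2, 10 to 17, 8 to 18 and 34 to 44 calls, and for WT cells 0 to 3, 16 to 28, 13 to 17 and 7 to 13. It gave 0 to 0 response differences at 0.5 h and at 1 h, 0 to 1 at 3 h and 1 to 6 at 8 h, 0 to 0 in untreated cells, 5 to 11 over the mean of the 5 times, and 9 to 15 for the genotype difference with 1 condition left out. DESeq2 size factors moved no count by more than 1.5 times. The choice for naming covered 184 calls, not all of which are described above. Over these, 1185 alternatives kept the call, 237 lost it and 5 reversed the direction. All 5 reversals came with library size alone, where Zfp217 stood at -0.074 and Zfp207 at -0.14 at 3 h of LPS, Zfp106 at -0.20 and Zfp143 at -0.31 at 8 h of LPS, and Zfp106 at -0.18 at 8 h of Poly(I:C). Library depth and 2 libraries a group limit the size of change that can be called in members near 100 reads.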
